A study of Mus musculus with 6 samples.

Results

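Esrp2 encodes an epithelial splicing regulator, and its transcript was set here beside 8 genes tied to epithelial identity, Esrp1, Rbfox2, Epcam, Cdh1, Grhl1, Grhl2, Ovol1 and Ovol2. The question was whether the high Esrp2 signal of mutant adrenal glands came with higher signals of other epithelial genes. Each gene was taken as the probe set to which the platform's annotation gives that symbol alone. All 9 were measured, each by 1 probe set, out of 19505 named genes and 22206 probe sets tested. Esrp2 was chosen by its difference between mutant and control glands in these same animals, so its values are a description and carry no test. The companions were chosen for what they are known to do, with earlier results of these data at hand.

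Adrenal glands of female mice aged 2 months were taken whole, and each animal's RNA was read on its own Affymetrix whole-transcript array. Mutant mice (n = 3) were Mst1flox/flox;Mst2flox/flox;Nr5a1-cre, and control mice (n = 3) were Mst1flox/flox;Mst2flox/flox without the Cre transgene. Nr5a1-cre is known to act in steroid-producing cells, while the whole gland also holds vessels, capsule and medulla, and which cells lost the kinases was not measured here. An effect of Cre itself cannot be told apart from loss of the kinases because no control carried it. MST1 and MST2 are the kinases at the top of the Hippo pathway. Stk4, the gene for MST1, had log2 signals of 8.14, 8.36 and 8.46 in mutant glands and 8.32, 8.66 and 8.94 in control glands. The groups overlapped (log2 change -0.32, SE 0.19, limma adjusted p = 0.623). Where its probes lie relative to the floxed part is not stated, so the value does not check the genotypes, and Stk3 was not analysed here.

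ESRP1 and ESRP2 are RNA-binding proteins of epithelial cells that steer exon choice in transcripts such as Fgfr2, Cd44, Ctnnd1 and Enah. RBFOX2 is a broadly expressed splicing regulator that shares many of these targets. Epithelial identity is held by E-cadherin (Cdh1) and EPCAM at the cell surface and by the GRHL and OVOL transcription factors. ZEB and SNAI factors repress these genes when cells turn mesenchymal. The adrenal cortex is made of steroid-producing cells of mesodermal origin, and is not a classical epithelium.

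The RefSeq promoter table of mouse build GRCm38.p6 held windows for Epcam, Grhl1 and Ovol2 among the 9 genes, 4 windows in all, each running from 250 bases before to 50 bases after a gene start. They were searched on both strands for 4 motifs. The TEAD core CATTCC was in 0 of the 4 windows and in 14.7% of the 32851 windows of the table. The GRHL motif AACNGGTT was in 0 of 4 and in 2.09% of all windows, and the NR5A1 motif CAAGGTCA was in 0 of 4 and in 1.56%. The E-box CACCTG, the letters that ZEB and SNAI proteins bind, was in 1 of 4 windows and in 20.2% of all windows. That window belongs to Epcam, and it is printed because it alone held any of these letters. The capitals mark the E-box on each strand (CAGGTG is the motif read from the opposite strand), 2 matches in the 250 bases before the start at chr17:87635729-87635978 on the plus strand.
Epcam: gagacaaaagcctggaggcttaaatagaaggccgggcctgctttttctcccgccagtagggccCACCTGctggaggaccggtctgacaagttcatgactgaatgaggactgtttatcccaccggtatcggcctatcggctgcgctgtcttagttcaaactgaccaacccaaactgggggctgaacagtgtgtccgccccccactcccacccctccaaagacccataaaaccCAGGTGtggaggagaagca
A match is a description of the letters and not a binding site.

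Esrp2 was the only one of the 9 genes past the threshold, a limma p-value of 0.05 adjusted over all probe sets. Its log2 signal was 9.91, 10.04 and 9.70 in mutant glands, against 6.72, 6.29 and 6.36 in control glands. The 3 mutants lay together, and the lowest of them stood 2.98 log2 units above the highest control. Group means were 9.88 ± 0.17 in mutant and 6.46 ± 0.23 in control glands (SD, n = 3 each), a measured 10.7-fold difference (log2 change 3.43, 95% interval 3.02 to 3.83). The spread within either group, 0.34 log2 units among mutants and 0.44 among controls, was small beside that. Control signals of Esrp2 fell between 2.53 and 7.32, the span of 23 probe sets that measure background, so the control level was not told apart from background and the fold may be understated. In a whole gland, more cells with the transcript and more transcript per cell cannot be told apart.

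Among the 9 genes 1 was past the adjusted threshold, where 0.0721% of all probe sets were (16 of 22206), and 0.054% were past it and higher in mutants. Nothing is read from that share, since Esrp2 was chosen on this contrast. Esrp2 is left out of the next counts for the same reason. Among the 8 companions the groups did not overlap for 2, against 16.4% of all probe sets. These were Rbfox2, higher in mutants, and Esrp1, lower. At an unadjusted limma p under 0.05 stood the same 2 genes, against 10.4% of all probe sets. The 8 companions had a median log2 change of -0.19, with 3 above 0 and 5 below, beside a median of -0.01 over all probe sets. With 1 animal left out the median of the companions ran from -0.23, without control 3, to -0.08, without mutant 2. It was -0.10 without control 2.

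**Figure D1:**
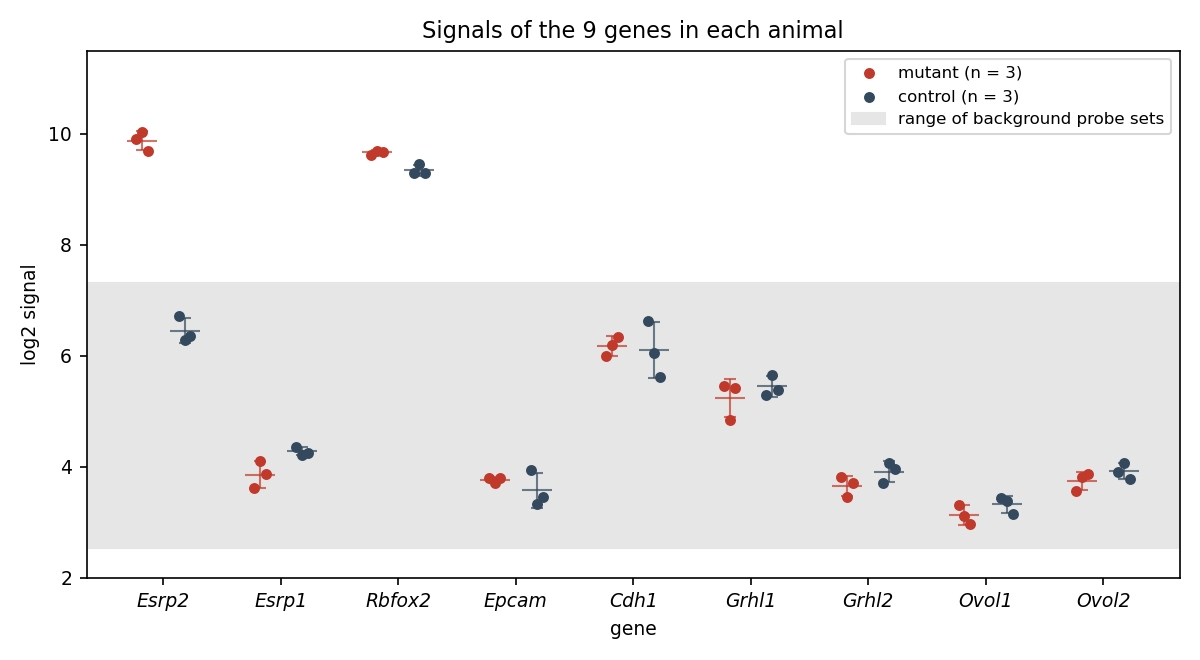
Log2 signal (vertical axis) of each of the 9 genes (horizontal axis) in the 3 mutant and the 3 control animals, with points for animals, a long tick for the group mean, error bars for the SD and grey for the range of the background probe sets. Esrp2 stands at 9.70 to 10.04 in mutants and at 6.29 to 6.72 in controls, while the groups of the other genes lie close together, and all of these but Rbfox2 sit in the grey range. Levels of different genes cannot be compared on an array.

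Esrp1, the close paralogue of Esrp2 with largely shared splicing targets, did not follow it. Its log2 signal was 3.62, 4.10 and 3.87 in mutant glands and 4.36, 4.22 and 4.26 in control glands. Each mutant thus lay below each control, by a gap of 0.12 log2 units. The log2 change of -0.42 (SE 0.17, 95% interval -0.80 to -0.04) did not pass over all probe sets (limma adjusted p = 0.442), and both groups lay within the background range.

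Rbfox2 was the only companion with signals above the background range. It had log2 signals of 9.63, 9.70 and 9.68 in mutant glands, against 9.29, 9.46 and 9.29 in control glands. Mutant animals differed among themselves by only 0.07 log2 units, and the groups were 0.17 apart. Its log2 change of 0.32 (SE 0.14, 95% interval 0.0013 to 0.64) did not pass (limma adjusted p = 0.479).

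Transcript signals of the surface proteins that define epithelia showed no comparable difference, and the proteins were not measured. Cdh1, the gene for E-cadherin, the adhesion molecule of epithelial junctions, had log2 signals of 6.0, 6.20 and 6.34 in mutant glands and 6.63, 6.05 and 5.62 in control glands. All mutants lay within the span of the controls, and the log2 change was 0.08 (SE 0.25, 95% interval -0.50 to 0.65, limma adjusted p = 0.951). Epcam, which encodes an epithelial adhesion and signalling protein, had 3.80, 3.70 and 3.80 in mutants against 3.94, 3.34 and 3.45 in controls. Again the mutants lay inside the control span (log2 change 0.19, SE 0.18, 95% interval -0.23 to 0.61, limma adjusted p = 0.782). Both genes were within the background range in all 6 animals.

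The transcription factors of the epithelial state lay below 0 in each case without passing. Grhl2, which sustains Cdh1 and junction genes in epithelia, had log2 signals of 3.81, 3.46 and 3.70 in mutants and 3.70, 4.07 and 3.96 in controls (log2 change -0.25, SE 0.17, limma adjusted p = 0.671). Grhl1, its relative of the epidermis, had 5.46, 4.85 and 5.43 in mutants and 5.30, 5.66 and 5.39 in controls (log2 change -0.20, SE 0.20). In both genes the animals of the groups overlapped. Ovol1 had log2 signals of 3.31, 3.11 and 2.96 in mutants and 3.43, 3.39 and 3.15 in controls. Ovol2 had 3.56, 3.81 and 3.87 in mutants and 3.92, 4.07 and 3.79 in controls. These zinc-finger factors repress Zeb1 in epithelia, and their log2 changes were -0.20 (SE 0.16) for Ovol1 and -0.18 (SE 0.16) for Ovol2, with limma adjusted p of 0.739 and 0.765. The groups overlapped for both, and each of the 4 factors was within the background range in all animals.

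**Figure D2:**
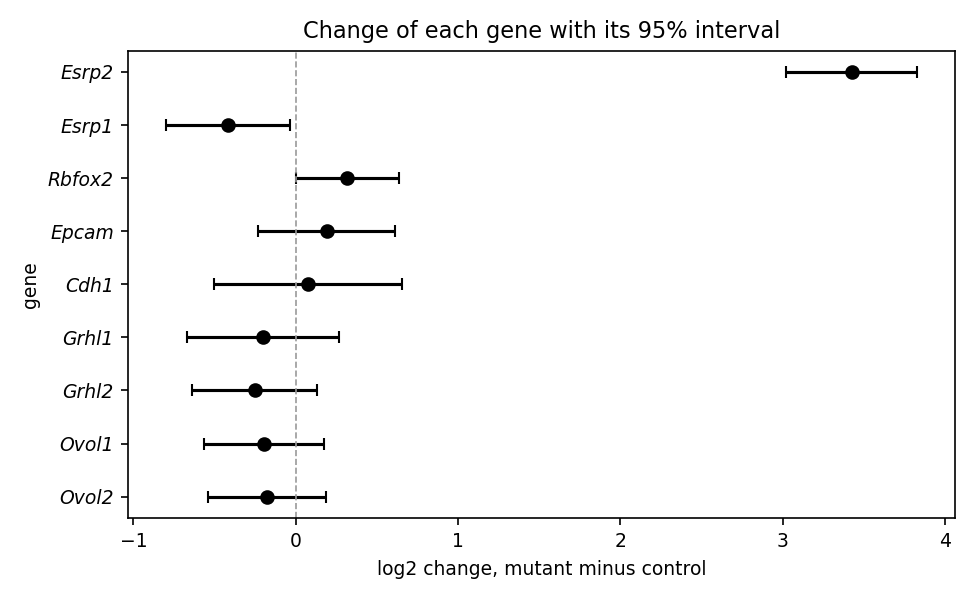
Log2 change, mutant minus control (horizontal axis), of each of the 9 genes (rows), with its 95% interval from the limma fit and a dashed line at 0. The interval of Esrp2 starts at 3.02, and the highest end among the other 8, that of Cdh1, is 0.65. Esrp2 was chosen on this contrast, so its interval is a description.

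The 95% intervals of the 8 companions all ended at or below 0.65 log2 units, and that of Esrp2 began at 3.02. Esrp2 was chosen on this contrast, so its interval is a description and not a test against theirs. The bounds of the companions are for measured signals. In genes not told apart from background, a change in a rare transcript could go unseen.

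A wider set of epithelial genes was read in the same way. Of 62 genes in 4 lists (transcription factors, junction and polarity genes, keratins, and surface and trafficking genes), 60 were measured. With limma, 0 of the 60 rose and 0 fell past the adjusted threshold. At an unadjusted p under 0.05 there were 6 higher and 2 lower in mutants, where 5.42% of all probe sets were higher and 4.96% lower at that level. Their median log2 change was 0.03, with 34 above 0 and 26 below, and both group means lay in the background range for 47 of the 60. The same held for 11851 of all 22206 probe sets. The median of the 60 thus mostly describes genes that were not told apart from background. The 11 genes whose groups did not overlap compare with the 16.4% of all probe sets given above.

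Junction and polarity genes held 4 of the 8 genes at the unadjusted level. These 4, of 26 measured, were all higher in mutants, where 5.42% of all probe sets were. Their groups did not overlap, against 16.4% of all probe sets in either direction. Cldn1, a tight junction claudin, averaged 10.59 ± 0.13 in mutant and 10.09 ± 0.28 in control glands (SD, n = 3 each), a difference of 0.50 log2 units (SE 0.18, limma adjusted p = 0.394). F11r, the junctional adhesion molecule A also carried by endothelium, averaged 12.26 ± 0.15 in mutant and 11.85 ± 0.19 in control glands (log2 change 0.42, SE 0.16). Dsc2, a desmosomal cadherin, differed by 0.71 log2 units (SE 0.18, limma adjusted p = 0.228) and Perp, a desmosome-linked protein, 0.43 (SE 0.15), both from signals within the background range. Over the 26 measured genes of this list the median was 0.06, with 0 past the adjusted threshold in either direction.

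Keratins, the intermediate filaments of epithelia, did not move together. Krt18, the partner of Krt8 in simple epithelia, had log2 signals of 5.11, 4.87 and 5.06 in mutants and 4.16, 4.28 and 4.52 in controls (log2 change 0.69, SE 0.16, limma adjusted p = 0.191). Krt8 itself differed by 0.00013 (SE 0.14). Krt19, found in simple epithelia and mesothelium, differed by -0.59 log2 units (SE 0.18, limma adjusted p = 0.315). Krt15 stood at -0.33 (SE 0.23) and Krt17 at 0.21 (SE 0.21). All 9 keratins were within the background range in both groups, with a median change of -0.0011.

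Of the 14 surface and trafficking genes, 8 were above 0 and 6 below, with a median of 0.05. For 5 of the 14 the groups did not overlap, 2 higher and 3 lower in mutants, against 16.4% of all probe sets. Cd24a, a small surface glycoprotein of epithelial and blood cells, averaged 9.92 ± 0.21 in mutant and 9.33 ± 0.04 in control glands (SD, n = 3 each; log2 change 0.59, SE 0.16, limma adjusted p = 0.26). Map7, a microtubule-binding protein, averaged 7.49 ± 0.26 in mutant and 7.96 ± 0.13 in control glands (log2 change -0.47, SE 0.18). The protease inhibitor Spint1 and the small GTPase Rab25, both genes of epithelia, stood at -0.29 (SE 0.16) and -0.27 (SE 0.16). Both were within the background range in both groups. Spint2, of the same list and above that range, went the other way at 0.28 (SE 0.20). Its groups did not overlap (limma adjusted p = 0.686).

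Epithelial transcription factors gave 4 genes above 0 and 7 below among the 11 measured, with a median of -0.07. Klf5, a zinc-finger factor of epithelia and smooth muscle, was the only one above the background range. It averaged 10.29 ± 0.32 in mutant and 9.75 ± 0.38 in control glands (SD, n = 3 each; log2 change 0.54, SE 0.24, limma adjusted p = 0.485), and the groups overlapped. Trp63, the master factor of stratified epithelia, had 0.32 (SE 0.19), Klf4 -0.27 (SE 0.25) and Foxa1 -0.19 (SE 0.19), all within the background range.

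**Figure D3:**
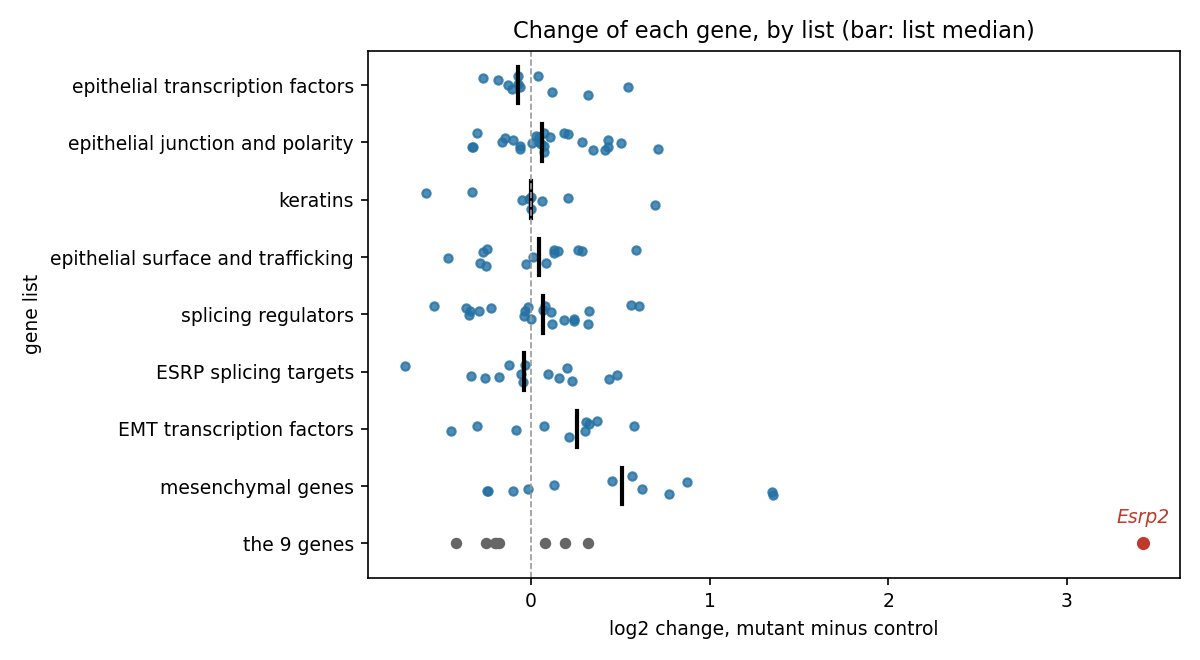
Log2 change, mutant minus control (horizontal axis), of each gene in 8 lists and of the 9 genes (rows), with black bars for list medians. Genes of the 4 epithelial lists lie between -0.59 and 0.71, and Esrp2 alone stands at 3.43. The medians of the EMT factors (0.26) and of the mesenchymal genes (0.51) lie right of 0.

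Factors of the epithelial to mesenchymal transition, several of which repress Esrp and Cdh1 genes in epithelial cells, were not all measured above background: 5 of the 10 had both group means inside that range. Zeb1 had log2 signals of 13.00, 12.78 and 12.56 in mutants, against 12.52, 12.35 and 12.57 in controls. Mutant 3 lay just below control 3, and the log2 change was 0.30 (SE 0.17, limma adjusted p = 0.59). Snai2, known as Slug, had 10.91, 11.16 and 11.13 in mutants, against 10.22, 10.60 and 10.64 in controls. Every mutant lay above every control for Snai2 (log2 change 0.58, SE 0.17, limma adjusted p = 0.311). Tcf4, a basic helix-loop-helix factor, had a log2 change of 0.31 (SE 0.14), Snai3 -0.45 (SE 0.22) and Twist2 -0.30 (SE 0.14), the last pair within the background range. Over the 10 measured factors the median was 0.26, 7 were above 0, and 0 rose or fell past the adjusted threshold, with 1 higher at the unadjusted level, where 5.42% of all probe sets were. For 4 of the 10 the groups did not overlap, 2 higher and 2 lower in mutants, against 16.4% of all probe sets. With 1 animal left out the median ran from 0.19, without control 3, to 0.29, without mutant 3. With the adipocyte marker mean described below as a covariate the median was 0.14. Zeb2 was not analysed here.

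Mesenchymal genes were mostly above 0, without passing. Their median log2 change was 0.51 over 12 genes, 8 of them above 0, with 0 past the adjusted threshold and 6 higher at the unadjusted level, where 5.42% of all probe sets were. With 1 animal left out the median ran from 0.37, without mutant 1, to 0.63, without control 3. Mutant 1 had the highest fat marker signals and was the highest mutant for Fn1, Vim and Col1a2. With the adipocyte covariate the median was 0.36, and a part of fat in these changes was not tested. Mmp2, a matrix-degrading protease, averaged 10.72 ± 0.48 in mutant and 9.37 ± 0.21 in control glands (SD, n = 3 each; log2 change 1.36, SE 0.25, limma adjusted p = 0.107). The matrix protein gene Fn1 had 1.35 (SE 0.36), the cadherin Cdh11 0.56 (SE 0.20) and the collagen chain Col1a2 0.77 (SE 0.29). Vim and Pdgfrb, of stromal cells and pericytes, had 0.62 (SE 0.27) and 0.46 (SE 0.20). All 5 measured endothelial markers were also above 0, with log2 changes of 0.58 for Kdr, 0.37 for Emcn and 0.60 for Cdh5. Of these 5, 4 were higher at the unadjusted level (5.42% of all probe sets) and 4 had groups that did not overlap (16.4% of all probe sets in either direction). Endothelial list means ran from 13.12 to 13.18 in mutants and from 12.50 to 12.77 in controls. Their part in the Esrp2 difference was not tested.

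Among splicing regulators other than the ESRP and RBFOX2 proteins none passed the adjusted threshold. Of 21 listed, 21 were measured, 12 above 0 and 9 below, with a median of 0.07 and 0 called by limma. At the unadjusted level 1 was higher and 1 lower, where 5.42% and 4.96% of all probe sets were. For 8 of the 21 the groups did not overlap, 4 higher and 4 lower in mutants, against 16.4% of all probe sets. Rbm47, an RNA-binding protein of epithelia, averaged 12.72 ± 0.07 in mutant and 13.06 ± 0.18 in control glands (SD, n = 3 each; log2 change -0.35, SE 0.15, limma adjusted p = 0.484). Khdrbs3 and Khdrbs1, of the STAR family, had -0.54 (SE 0.18) and -0.36 (SE 0.17). Nova2, a regulator best known from neurons, had 0.60 (SE 0.18), within the background range.

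Transcripts that ESRP proteins splice were measured as whole genes, with 1 probe set each, so exon choice was not read. Of 14, 6 were above 0 and 8 below, with a median of -0.04, and 0 passed the adjusted threshold. Cd44, the hyaluronan receptor with ESRP-dependent variable exons, averaged 12.80 ± 0.34 in mutant and 13.51 ± 0.38 in control glands (SD, n = 3 each; log2 change -0.70, SE 0.24, limma adjusted p = 0.376). Itga6, a laminin-binding integrin, averaged 14.58 ± 0.26 in mutant and 14.10 ± 0.12 in control glands (log2 change 0.48, SE 0.18). The groups did not overlap for 4 of the 14 genes, against 16.4% of all probe sets. These were Cd44 and, higher in mutants, Itga6, Arhgap17 and Slk. At an unadjusted limma p under 0.05 stood 2 genes, Cd44 and Itga6, against 10.4% of all probe sets. Arhgap17 and Slk, which act on the cytoskeleton, had 0.44 (SE 0.20) and 0.23 (SE 0.14). Fgfr2, whose receptor isoforms are the classical ESRP readout, had -0.18 (SE 0.14). In mouse liver ESRP2 is known to steer splicing of the Hippo genes Nf2, Csnk1d, Yap1 and Tead1. Their log2 changes here were -0.26 (SE 0.28) for Nf2, 0.09 (SE 0.16) for Csnk1d, -0.05 (SE 0.17) for Yap1 and -0.34 (SE 0.31) for Tead1.

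Markers of other epithelia that a dissected gland could carry were low in both groups. All 9 measured kidney epithelial markers lay within the background range, among them Slc12a3, Lrp2 and Slc12a1, and their list means were 4.09 to 4.19 in mutants and 4.07 to 4.14 in controls. Mesothelial markers, of the layer over the capsule, had list means of 5.65 to 6.01 in mutants and 5.95 to 6.22 in controls. Group means of Upk3b and Gpm6a were above the background range, while Lrrn4 lay within it. Upk3b averaged 7.68 ± 0.82 in mutants and 8.15 ± 0.32 in controls (SD, n = 3 each), and Gpm6a 7.39 ± 0.25 in mutants and 7.69 ± 0.12 in controls. Of the 7 measured mesothelial markers 6 were below 0, with a median of -0.30, and 0 passed the adjusted threshold. At the unadjusted level 1 was lower, where 4.96% of all probe sets were. Cortex markers were bright, with Cyp21a1 at 18.98 ± 0.07 in mutant and 19.14 ± 0.02 in control glands, and Hsd3b1 and Cyp11b1 above 18 log2 units in every animal. All 5 measured medulla markers were below 0, from -0.24 for Dbh to -0.55 for Pnmt, with 0 at the unadjusted level and overlapping groups. Fat markers varied most: adipocyte list means were 11.97, 9.63 and 8.99 in mutants and 7.65, 9.10 and 10.61 in controls, over a list that holds Fabp4, Plin1 and Adipoq. With that mean as a covariate the log2 change of Esrp2 was 3.46.

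None of the genes beside Esrp2 on chromosome 8 passed the adjusted threshold, and the largest difference among them was that of Slc7a6. The 5 nearest measured genes on each side in the GRCm38.p6 gene table, 10 in all, had log2 changes from -0.22 to 1.08 with a median of -0.02, and 1 was at the unadjusted level, where 10.4% of all probe sets were. The groups did not overlap for 2 of the 10, Slc7a6 and Ddx28, both higher in mutants, against 16.4% of all probe sets. Nfatc3, a calcium-dependent transcription factor gene whose record overlaps that of Esrp2 in this table, had 13.43, 13.28 and 13.32 in mutants and 13.17, 13.03 and 13.39 in controls (log2 change 0.15, SE 0.15). On the other side Pla2g15, a lysosomal phospholipase, had 0.21 (SE 0.17). Next to it Slc7a6, an amino acid transporter subunit, had log2 signals of 10.23, 10.89 and 11.16 in mutants, against 9.57, 9.53 and 9.96 in controls. Its groups did not overlap (log2 change 1.08, SE 0.25, limma adjusted p = 0.194). The remaining neighbours, Dpep3, Dpep2, Ddx28, Dus2, Slc7a6os, Prmt7 and Smpd3, lay between -0.22 and 0.27.

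**Figure D4:**
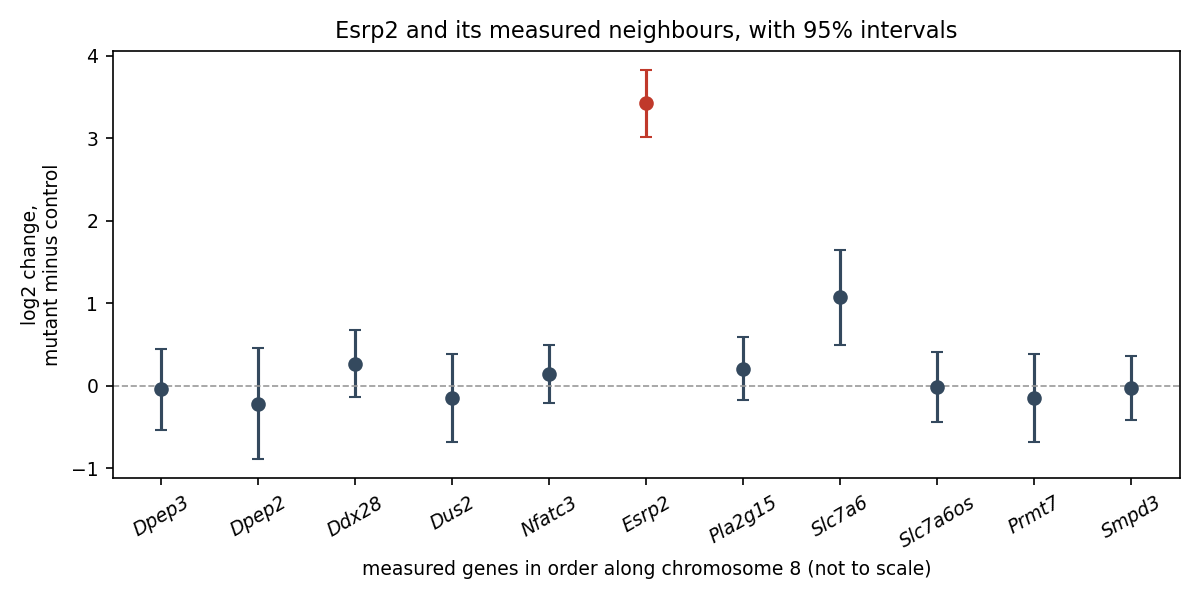
Log2 change, mutant minus control (vertical axis), with 95% intervals, of Esrp2 and the 5 measured genes on each side of it in their order along chromosome 8 (horizontal axis, distances not to scale). Esrp2 stands at 3.43, Slc7a6 at 1.08, and the others lie between -0.22 and 0.27.

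Genes with the pattern most like that of Esrp2 were found from signals centred on each gene's own mean, by Euclidean distance over the 6 animals. The 5 nearest were Sparcl1 (distance 1.41 log2 units), Mybpc1 (1.55), Pianp (1.73), Bpifa2 (1.77) and Ibsp (1.82). Sparcl1 encodes a secreted matrix glycoprotein, Mybpc1 a myosin-binding protein of muscle, Pianp a membrane protein, Bpifa2 a secreted protein of salivary glands and Ibsp a sialoprotein of bone. Sparcl1 measured 13.95, 14.37 and 13.60 in mutants, against 11.89, 11.29 and 11.76 in controls. Like Esrp2, it was highest in mutant 2 and lowest in control 2. Pianp and Sparcl1 passed the adjusted threshold, and the others did not (limma adjusted p from 0.0529 to 0.0797). None of the 5 is in the lists above. Of the companions Rbfox2 came nearest, at a distance of 3.84, with 1976 genes outside the set nearer to Esrp2 than it was, and Esrp1 was farthest, at 4.72. This distance depends on the size of a change as well as its shape, so a gene of small change lies far from Esrp2. Pearson's r with Esrp2 ran from 0.917 to 0.986 for the 5 and was 0.916 for Rbfox2. For the other companions it ran from -0.791 (Esrp1) to 0.514 (Epcam). The 6 animals fall into 2 groups, so r mostly repeats the difference between groups.

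**Figure D5:**
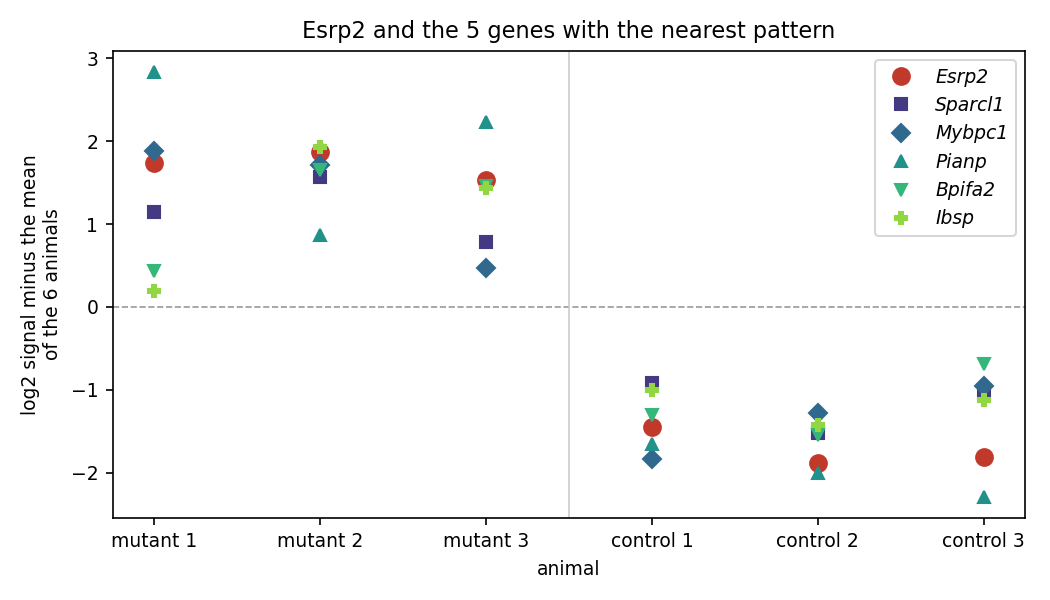
Log2 signal minus the gene's mean over the 6 animals (vertical axis) in each mutant and control animal (horizontal axis) for Esrp2 and the 5 genes nearest to it. The points of all 6 genes lie above 0 in the mutants and below 0 in the controls, and those of Esrp2 scatter least among the mutants.

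In order of adjusted p, Esrp2 (0.00072, the value it was chosen on) was followed by Ajuba, a LIM protein that binds LATS kinases, and the amino acid transporter Slc6a15. Ajuba measured 12.81, 13.06 and 12.71 in mutants, against 10.88, 10.99 and 10.98 in controls. Slc6a15 measured 6.95, 6.83 and 6.53 in mutants, against 8.76, 9.10 and 8.89 in controls. Both had a limma adjusted p of 0.00878. With the replicate number as a block, or without control 1, 2 or 3, Esrp2 was the 1 probe set left past the threshold. Its log2 change stayed between 3.34 and 3.56 whichever animal was left out. These refits use the animals it was chosen on, so they too are a description.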

How the data were processed

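RNA of whole adrenal glands from 3 mutant and 3 control mice was read on arrays, 1 animal each, and groups follow the sample descriptions. The authors deposited log2 signals by probe set, a scale read from their range (1.92 to 19.15). Transcriptome Analysis Console 4.0 is named in the submitters' processing notes. How background and arrays were adjusted is not stated, and a step that equalises arrays would hide a shift common to most genes. Array medians were 6.76 to 6.83, so the values were used as they stand. Detection calls were not used, and the number of animals limits precision.

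Control probe sets (6640 of 28846) were left out. Of the 22206 tested, 19572 had 1 gene symbol. The difference between groups came from limma 3.58.1 (lmFit, then eBayes; R 4.3.3) over the 6 arrays without covariates, and p-values are two-sided with Benjamini-Hochberg adjustment over all probe sets (threshold 0.05). Intervals are at 95% with the moderated variance. Where a gene had several probe sets, the one with the highest mean stood for it. On simulated data over 22206 probe sets the fit called 37 of 100 changes of 1 log2 unit and 92 of 100 changes of 2, with 5 false calls. The simulated noise was normal and independent between probe sets, with variances drawn from limma's prior. These rates may therefore not carry over to the real arrays.

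The genes and lists were chosen with earlier results of these data known. Named were the 9 genes, Stk4, 4 genes of smallest unadjusted p per list, 3 brightest markers per cell type, 5 neighbours on each side, the 5 nearest patterns and the probe sets next to Esrp2 in adjusted p. Krt8, Spint2, Zeb1, Fgfr2, Nf2, Csnk1d, Yap1, Tead1, Vim, Pdgfrb and Pnmt were named after values were seen, to complete counts or pairs. Protein sequences were not used here. Alternatives were quantile normalization, equal array medians, no dim probe sets, trend and robust variance, array weights, the replicate block, each animal left out, and, added after seeing the data, the adipocyte mean as a covariate. All listed genes had 1 probe set, so averaging a gene's probe sets changes nothing for them.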

Additional observations from a re-analysis of the deposited data

How the results depend on the processing

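Esrp2 stayed past the adjusted threshold under every alternative run, with log2 changes of 3.34 to 3.56, and the count of the 9 genes past it was 1 throughout. Because Esrp2 was chosen on these same arrays, its passing in refits of them is a description and not a test. Without mutant 2 another probe set had a smaller limma p than Esrp2. The number of all probe sets past it, 16 (12 higher, 4 lower), was 38 with quantile normalization, 32 with a shift to a common median (20 higher, 12 lower), 92 without dim probe sets, 175 with trend and robust variance, 48 with array weights and 2 with the adipocyte covariate. Leaving out 1 animal gave from 1 to 15, with 1 without control 1, 2 or 3 and 6 without mutant 2, fits that rest on fewer animals. The replicate block gave 1. Whether same-numbered animals share more than a number is not stated. Their deviations from the group means correlated at -0.090, 0.082 and -0.070. Those of differently numbered animals correlated at -0.10 to 0.16, so these values cannot decide it. Cdh1 changed sign with array weights (log2 change -0.013) and ran from -0.16 to 0.34 without single animals, Epcam from 0.07 to 0.37 and Grhl1 from -0.31 to -0.0037, and the cause was not tested. With trend and robust variance 1 gene of the 8 lists passed, Mmp2 (limma adjusted p = 0.0225), and so did the endothelial marker Cdh5 (0.0448). Without dim probe sets, 7 of the 8 companions, all but Rbfox2, were not tested. Genes within the background range limit what can be seen: a change of a transcript at that level may be compressed.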

Other observations

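The 23 background probe sets differed by the GC count in their names. Means were 2.60 to 4.80 for counts of 8 to 18 and 6.28 to 7.20 for lower and higher counts. Esrp1, Epcam, Grhl2, Ovol1 and Ovol2 had signals within the first of these ranges in every animal, and the control signals of Esrp2 lay within the second. GC content of the gene probes was not used here.

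Pianp, which had the largest log2 change of all probe sets (3.96), ordered the mutants otherwise than Esrp2. It measured 10.71, 8.74 and 10.11 in mutants 1, 2 and 3, against 6.22, 5.87 and 5.58 in controls, whereas Esrp2 was highest in mutant 2. Its SD among mutants was 1.01 log2 units, against 0.17 for Esrp2.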
